A study of Mus musculus with 72 samples.

Results

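The comparison described here sets 3 lymphoma lines that regrew under the combination of CX-5461 and everolimus against 3 lines that regrew under everolimus alone, in input RNA. The 6 libraries were taken by their labels out of 72 in the series. All 6 lines came from 1 lymphoma clone, Eμ-Myc clone 107 carrying an MSCV Gfp vector, in which an immunoglobulin enhancer drives Myc in B cells. The clone was transplanted into mice of a survival experiment, and when a mouse had relapsed its lymph node cells were taken and grown for 2 to 3 passages. The combination lines are numbered 8, 9 and 31, and the everolimus lines 4, 12 and 26. Doses and ages for these mice are not given in the sources used here, nor whether drug was present in culture. Because all lines share 1 clone, the 3 lines of a group are separate relapses of the same tumour, not separate tumours. Lines that regrew under CX-5461 alone (14, 20 and 39) and vehicle lines, called naive here (6, 33 and 38), supply levels for orientation. Input RNA is cytosolic RNA taken before the sucrose gradient, depleted of ribosomal RNA.

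CX-5461 inhibits RNA polymerase I, which makes ribosomal RNA, and also acts on topoisomerase II. Everolimus binds FKBP12 and blocks mTORC1, a kinase complex that drives translation, partly through 4E-BP1. Lymphomas of the Eμ-Myc mouse depend on high rates of ribosome production and protein synthesis, the processes at which both drugs are aimed. All 6 lines compared here regrew under everolimus, and the groups differ in whether CX-5461 was given with it.

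The 6 input libraries held 14566897 to 26016328 counts, and levels are given as CPM, the count divided by the library's total in units of 1e6 reads and by its TMM factor. The 12 relapse input libraries fall into a pair of processing runs, seen in the pseudogene Gm9341. It had 0.0447 to 0.212 CPM, scaled by library total alone, in 7 libraries, combination lines 8 and 9 and everolimus line 12 among them, and 35.8 to 56.8 CPM in 5, with combination line 31 and everolimus lines 4 and 26. The labels do not say what the runs are, and both hold lines of both groups. A term for the run called 2948 of 14474 genes in input RNA, 2 of them (Lgr5 and Tmem43) among the 104 that differ between the groups compared. The 104 were called without a run term, where a run difference adds to the spread within groups. Their small overlap with the run therefore cannot tell whether they are free of it. B cell genes were abundant in every line, with 42 of them summing to 8524 to 9785 CPM in combination lines and 8878 to 9979 CPM in everolimus lines. Markers of other cells were scarce. Of 20 T cell markers in the table, 16 were under 1 CPM in all 6 lines and 3 at 0, and the list summed to 4.00 to 7.56 CPM in combination lines and 7.13 to 14.3 CPM in everolimus lines. All 11 NK markers were under 1 CPM, 6 of them at 0, summing to 0.746 to 1.49 CPM in combination lines and 0.31 to 0.428 CPM in everolimus lines. Of 22 myeloid markers 17 were under 1 CPM and 6 at 0, summing to 18.6 to 22.4 CPM in combination lines and 13.8 to 22.7 CPM in everolimus lines. Stromal markers summed to 36.1 to 47 CPM in combination lines and 42 to 53 CPM in everolimus lines, and red cell and platelet markers to 1.97 to 4.06 CPM in combination lines and 2.42 to 3.85 CPM in everolimus lines. No marker of these lists was called. The Ighv2-2 segment led the heavy chain genes in all 6 lines, with 78.1% to 82.6% of heavy chain variable counts. In bulk RNA, fewer cells of a kind and less RNA per cell cannot be told apart.

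Of 14474 genes tested, 104 (0.719%) differed between combination and everolimus lines, 37 higher (0.256%) and 67 lower (0.463%) in combination lines. These calls come from edgeR's quasi-likelihood test with Benjamini-Hochberg adjustment, and that test gives every adjusted p below. The labels give separate relapse lines, each sequenced 1 time per fraction. The p-values therefore measure the spread between lines within a group, pooled over all 12 libraries, CX-5461 and naive lines included. They treat every line as independent, although some lines share kappa segments, as given further on. Changes of at least 2-fold were found in 27 of the higher and 28 of the lower genes. In all 104 the 3 combination lines lay outside the range of the 3 everolimus lines, which was so for 19.6% of all genes tested. The count rests on few lines: it was 3 without combination line 9, 5 without everolimus line 26, 18 without combination line 31, 23 without everolimus line 4, 39 without everolimus line 12 and 48 without combination line 8. It was 7 when the other 6 libraries were left out of the model, and 497, all 104 included, with the run as a term.

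The difference with the smallest p was in Sox12, a SoxC transcription factor (chromosome 2, 152393611 to 152398063). It had 35.6, 27.5 and 24.9 CPM in combination lines 8, 9 and 31, against 3.99, 4.66 and 2.23 CPM in everolimus lines 4, 12 and 26. Every combination line was far above every everolimus line, and the fold change of 8.02 was outside the spread of the lines (log2 3.00 ± 0.25 SE, n = 3 lines each, adjusted p = 0.000612 by edgeR). The log2 fold change of Sox12 was 2.72 in the run low in Gm9341 and 3.02 in the run high in it. Each within-run fit had just 1 line on 1 side. Its level in CX-5461 lines was 32.1, 26.4 and 28.9 CPM, and in naive lines 3.06, 4.29 and 4.01 CPM.

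Lgr5, a receptor for R-spondins that raises Wnt signalling (chromosome 10, 115450311 to 115587780), showed the same arrangement. It had 25.4, 29.4 and 32.6 CPM in combination lines, against 7.91, 5.11 and 6.38 CPM in everolimus lines. The groups were far apart, at 4.53-fold (log2 2.18 ± 0.27, adjusted p = 0.00709), and CX-5461 lines were at 25.7 to 38.5 CPM while naive lines were at 2.38 to 5.52 CPM. Lgr5 also differed by run (adjusted p = 0.019), and its log2 fold change was 2.39 in the low run and 2.20 in the high run. It was the 1 called gene among 19 Wnt pathway genes tested, beside 0.719% of all genes called. The median log2 fold change of the Wnt list was -0.01, beside 0.01 for all genes tested. The Wnt receptor Fzd7 had 5.10, 7.61 and 7.56 CPM in combination lines and 0.499, 0.852 and 0.062 CPM in everolimus lines, and did not pass (adjusted p = 0.0557).

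Several transcripts known as targets of hypoxia-inducible factor were higher in combination lines than in everolimus lines. Hypoxia-inducible factor is a transcription factor whose alpha subunit is hydroxylated and degraded while oxygen is plentiful, and it turns on genes for glycolysis, mitophagy and vessel growth. The list of its targets was written after values had been seen, so its counts describe these lines and support nothing. Of 34 members tested, 5 were higher and 1 lower in combination lines, and the median log2 fold change was 0.30, beside 0.719% of all genes called and a median of 0.01. The 6 calls became 1 in the low run, with the 6 libraries alone, without combination line 9 and without everolimus line 26, and 2 without everolimus line 4, 3 without combination line 31, 3 without everolimus line 12 and 4 without combination line 8.

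Adm, the precursor of the vessel-dilating peptide adrenomedullin, had 4.27, 7.06 and 5.01 CPM in combination lines, against 0.713, 0.672 and 0.558 CPM in everolimus lines. All 3 combination lines were well above all 3 everolimus lines, an 8.35-fold difference (log2 3.06 ± 0.34, adjusted p = 0.00555). CX-5461 lines had 0.52 to 1.04 CPM and naive lines 1.15 to 1.62 CPM, so the Adm level of the combination lines stood above that of the other 9 lines. Egln3, a prolyl hydroxylase that marks hypoxia-inducible factor for degradation and is itself one of its targets, had 32.2, 62.0 and 23.8 CPM in combination lines and 7.70, 9.77 and 4.52 CPM in everolimus lines. That is a 5.34-fold difference with no overlap (log2 2.42 ± 0.38, adjusted p = 0.0295), and line 9 was highest. CX-5461 lines had 11.3 to 23.1 CPM of Egln3 and naive lines 8.8 to 10.6 CPM.

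Bnip3, a mitochondrial receptor for mitophagy, had 66.6, 102 and 73.8 CPM in combination lines, against 39.8, 30.7 and 33.1 CPM in everolimus lines (log2 1.23 ± 0.19, adjusted p = 0.0275). Ero1l, an oxidase that forms disulfides in the endoplasmic reticulum and was picked after its values were seen, had 65.8, 99.1 and 87.3 CPM in combination lines and 38.6, 33.1 and 43.7 CPM in everolimus lines (log2 1.13 ± 0.21, adjusted p = 0.0367). The folds were 2.34 for Bnip3 and 2.19 for Ero1l, and neither gene's groups overlapped. CX-5461 lines had 57.4 to 80 CPM of Bnip3 and naive lines 37.4 to 48 CPM. For Ero1l, CX-5461 lines had 39 to 67.8 CPM and naive lines 59.3 to 68.3 CPM. Against naive lines, Ero1l was at log2 0.39 in combination lines (adjusted p = 0.221) and -0.73 in everolimus lines (adjusted p = 0.0405). Bhlhe40, a basic helix-loop-helix repressor, had 5.78, 14.6 and 1.81 CPM in combination lines, against 0.641, 0.134 and 0.248 CPM in everolimus lines (log2 4.51 ± 0.83, adjusted p = 0.0367). Line 9 again carried the highest value, and within runs the log2 fold change of Bhlhe40 was 6.16 in the low run and 2.05 in the high run, with no call in either.

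The rest of that list did not move as a block. The glucose transporter gene Slc2a1 had 195, 241 and 178 CPM in combination lines and 139, 169 and 129 CPM in everolimus lines (log2 0.49, adjusted p = 0.194). Egln1, the main prolyl hydroxylase of the pathway, had 74.1, 78.8 and 55.3 CPM in combination lines and 43.0, 48.2 and 39.5 CPM in everolimus lines (log2 0.67, adjusted p = 0.0731). Vegfa, the vessel growth factor, was at 69.6, 76.9 and 68.7 CPM in combination lines and 71.4, 60.7 and 71.1 CPM in everolimus lines. Hif1a, the alpha subunit itself, and Vhl, the ligase subunit that removes it, did not pass (adjusted p = 0.408 and 0.709). Tpi1, a glycolytic enzyme, was the lower member and lies on chromosome 6, which is described further on.

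The stretch before the start of 2 of these genes, the pair with the largest folds that had a sequence to show, is printed because hypoxia-inducible factor recognises the short core ACGTG or GCGTG, on either strand. The sequences are the 250 bases before the RefSeq start (GRCm38.p6), 5′ to 3′ on the gene's strand, with every match to either core or its reverse complement in capitals. Bnip3, Ero1l and Bhlhe40 are named only.
Adm, chr7:110627407-110627656, plus strand: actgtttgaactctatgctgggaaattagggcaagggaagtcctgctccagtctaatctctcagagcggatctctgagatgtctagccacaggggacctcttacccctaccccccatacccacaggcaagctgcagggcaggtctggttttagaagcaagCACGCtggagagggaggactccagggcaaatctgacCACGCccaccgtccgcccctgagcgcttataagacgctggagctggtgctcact
Egln3, chr12:54203875-54204124, minus strand: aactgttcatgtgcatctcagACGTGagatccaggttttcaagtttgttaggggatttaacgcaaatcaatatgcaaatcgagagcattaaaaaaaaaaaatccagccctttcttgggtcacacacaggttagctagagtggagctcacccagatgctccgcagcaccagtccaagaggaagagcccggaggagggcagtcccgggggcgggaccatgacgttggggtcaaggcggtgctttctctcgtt
The Adm stretch held 2 matches to GCGTG and none to ACGTG, and the Egln3 stretch held 1 match to ACGTG. Over the promoters of 27025 genes cut to the same length, 16.6% held ACGTG, 28.2% held GCGTG and 38.6% held at least 1 of them. A match describes letters and is no evidence of binding.

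Feedback inhibitors of receptor tyrosine kinase and ERK signalling were called in both directions in input RNA. Of 36 genes tested in the list of ERK feedback, AP-1 and early response genes, 2 were higher and 1 lower, around a median of 0.00, beside 0.719% of all genes called. No member of the list was called with the 6 libraries alone, without combination line 9 or without everolimus line 26. In polysomal RNA 0 of its 35 tested members were higher and 4 lower, and neither Spry1 (adjusted p = 0.0768) nor Spry4 (0.0708) was called there. Spry1, a feedback inhibitor that acts on the way to ERK, had 12.9, 16.8 and 3.67 CPM in combination lines, against 0.855, 1.88 and 0.496 CPM in everolimus lines (log2 3.32 ± 0.55, adjusted p = 0.0295). Its relative Spry4 had 9.94, 11.8 and 5.86 CPM in combination lines and 1.64, 3.18 and 1.74 CPM in everolimus lines (log2 2.05 ± 0.33, adjusted p = 0.0295). Line 31 was the lowest of the combination lines for both, and still above all everolimus lines. CX-5461 lines had 5.56 to 9.42 CPM of Spry1 and 15.7 to 26.1 CPM of Spry4, while all naive lines were under 1 CPM for both.

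Dusp5, a nuclear phosphatase that switches ERK off, went the other way. It had 59.9, 35.3 and 33.8 CPM in combination lines, against 93.4, 154 and 117 CPM in everolimus lines, with no overlap (log2 -1.5 ± 0.24, adjusted p = 0.0295). Naive lines, at 76.0 to 108 CPM, were within or near the everolimus range. Egr1, an early target of ERK, had 13.9, 36.0 and 11.1 CPM in combination lines and 5.42, 7.30 and 7.37 CPM in everolimus lines, and did not pass (adjusted p = 0.175).

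**Figure D1:**
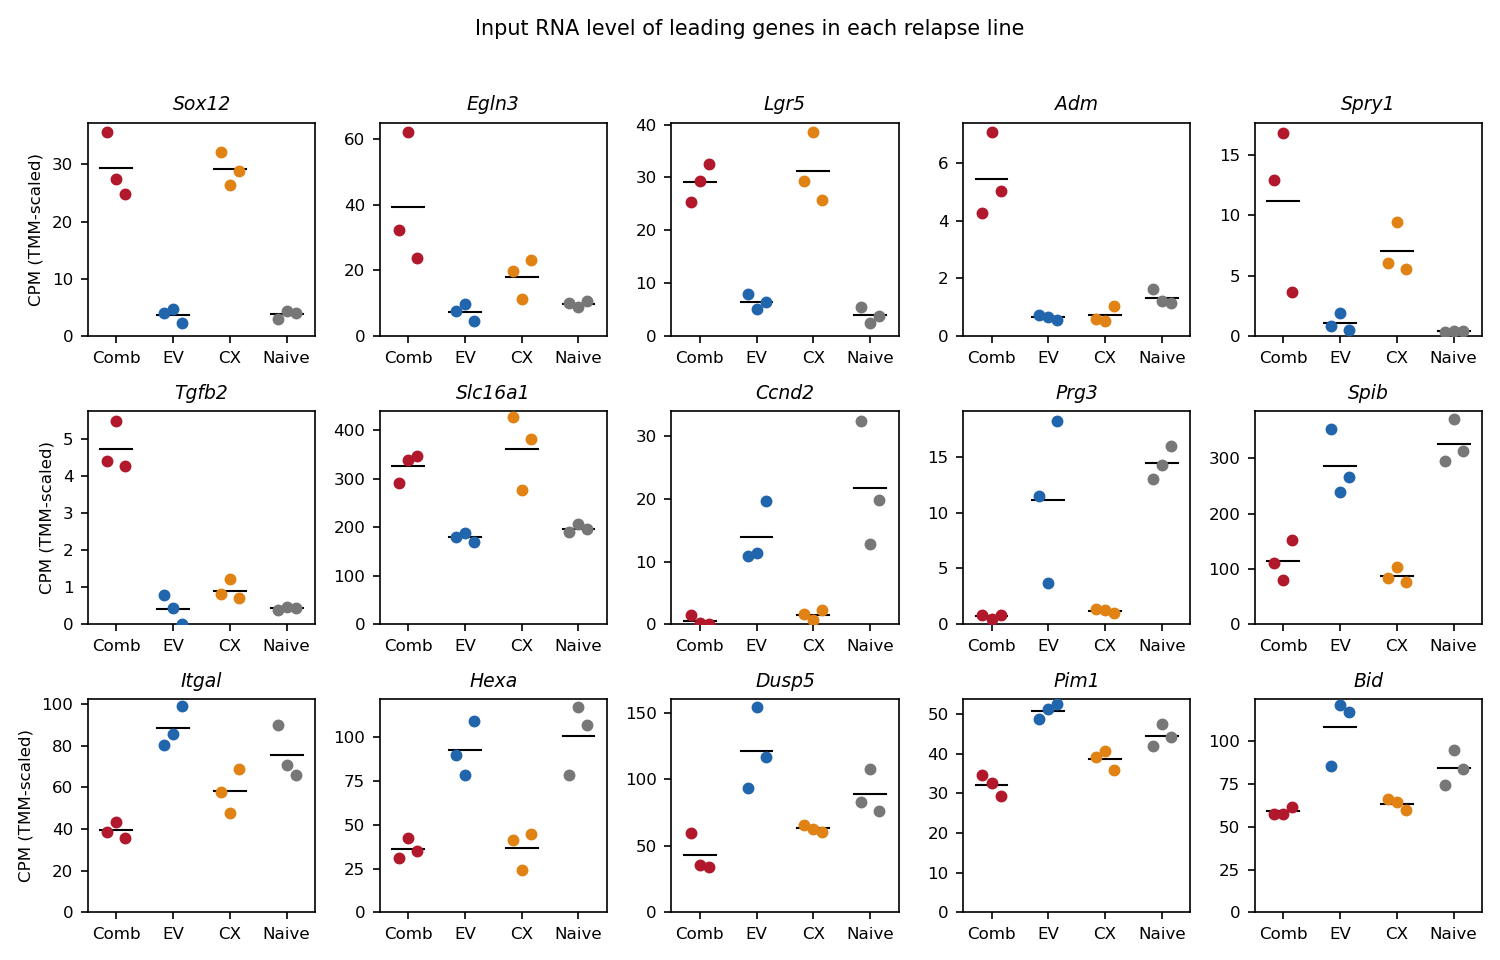
Input RNA levels (TMM-scaled CPM, linear axes from 0) of 15 called genes in each of the 12 lines, grouped left to right as combination (Comb), everolimus (EV), CX-5461 (CX) and naive; each point is 1 line and the bar is the mean of 3. Combination and everolimus points do not overlap in any panel, and for Sox12 combination lines sit at 24.9 to 35.6 CPM and everolimus lines at 2.23 to 4.66 CPM.

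Several other genes with large rises encode ligands, enzymes and transporters. Tgfb2, a transforming growth factor beta ligand (chromosome 1, 186622792 to 186705989), had 4.42, 5.48 and 4.26 CPM in combination lines, against 0.784, 0.448 and 0 CPM in everolimus lines. The 11.5-fold difference (log2 3.53 ± 0.63, adjusted p = 0.0341) had a log2 value of 3.42 in the low run and 3.5 in the high run. CX-5461 lines had 0.705 to 1.21 CPM and naive lines 0.371 to 0.477 CPM of Tgfb2, so the combination lines again stood above the other 9.

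Slc6a19, a transporter of neutral amino acids, was the 1 gene over 1 CPM in all lines of one group and under 0.1 CPM in all lines of the other. It had 1.30, 1.49 and 1.12 CPM in combination lines, 81 counts in all, and no count in any everolimus line. Against a floor of 3 counts over the everolimus group it was at least 23-fold higher in combination lines (adjusted p = 0.0295). Rnf130, a RING-type ubiquitin ligase, had 9.31, 5.82 and 3.51 CPM in combination lines and 0.285, 0.986 and 0.930 CPM in everolimus lines (adjusted p = 0.041). Dclk2, a doublecortin-like kinase, had 4.94, 14.3 and 9.96 CPM in combination lines and 1.71, 1.79 and 0.372 CPM in everolimus lines (adjusted p = 0.0295). Lysmd2, a protein with a LysM domain, had 3.59, 6.80 and 12.8 CPM in combination lines and 1.5, 0.672 and 0.186 CPM in everolimus lines (adjusted p = 0.0301). Spats2 had 6.14, 1.28 and 3.20 CPM in combination lines and 0.285, 0.493 and 0.124 CPM in everolimus lines (adjusted p = 0.044). Rnf130, Dclk2, Lysmd2 and Spats2 were spread widely among the combination lines, unlike Slc6a19, and the order of lines 8, 9 and 31 differed from gene to gene.

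Among abundant transcripts, Slc16a1 (MCT1), the proton-linked carrier of lactate and pyruvate, had 291, 339 and 346 CPM in combination lines, against 180, 187 and 169 CPM in everolimus lines. The lines of each group were close together, and the difference was 1.82-fold (log2 0.86 ± 0.15, adjusted p = 0.034). CX-5461 lines had 277 to 426 CPM and naive lines 189 to 206 CPM. The other lactate carrier, Slc16a3 (MCT4), had 164, 145 and 60 CPM in combination lines and 74.6, 102 and 56.0 CPM in everolimus lines (adjusted p = 0.585). Of 23 genes of glycolysis and of glucose and lactate transport (median -0.10), Slc16a1 was the 1 higher and Tpi1 the 1 lower, beside 0.719% of all genes called. Me2, the mitochondrial malic enzyme that makes pyruvate, had 64.9, 62.5 and 56.8 CPM in combination lines and 38.4, 37.3 and 45.4 CPM in everolimus lines (log2 0.60 ± 0.11, adjusted p = 0.0367). It was the 1 called gene of 26 in the TCA cycle list (median 0.06), beside 0.719% of all genes called. Against naive lines, Me2 was at log2 0.20 in combination lines (adjusted p = 0.247) and -0.40 in everolimus lines (adjusted p = 0.0383). Lmo4, a LIM-only transcriptional adaptor named outside the rule for choosing genes, had 374, 378 and 344 CPM in combination lines and 187, 181 and 145 CPM in everolimus lines (log2 1.09 ± 0.13, adjusted p = 0.00709).

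Among genes with a symbol that is not a clone number, the largest called fall was in Ccnd2, the gene of cyclin D2, which drives entry into S phase with CDK4 and CDK6 (chromosome 6, 127125162 to 127152193). Combination lines 8, 9 and 31 had 1.46, 0.17 and 0 CPM, against 10.9, 11.4 and 19.6 CPM in everolimus lines 4, 12 and 26. Cyclin D2 RNA was almost absent in 2 of the 3 combination lines (log2 -4.70 ± 0.80, 26.1-fold lower, adjusted p = 0.0295). CX-5461 lines had 0.636 to 2.32 CPM, and naive lines 12.8 to 32.4 CPM. Within the low run Ccnd2 did not pass (log2 -3.91, adjusted p = 0.062), and in the high run the 1 combination line, 31, had no count, so no fold is given there. The other D cyclins were far more abundant: Ccnd1 had 173, 127 and 133 CPM in combination lines and 174, 207 and 217 CPM in everolimus lines (adjusted p = 0.227), and Ccnd3 had 151, 136 and 170 CPM in combination lines and 194, 116 and 128 CPM in everolimus lines (adjusted p = 0.967). Both were named after their values were seen, to set Ccnd2 beside its family.

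Prg3, Fes and Nfam1 were, after Ccnd2, among the largest falls. Prg3, an eosinophil granule protein gene, had 0.781, 0.468 and 0.852 CPM in combination lines, against 11.5, 3.72 and 18.2 CPM in everolimus lines (log2 -3.99 ± 0.50, adjusted p = 0.00709), and naive lines had 13.0 to 16 CPM. Fes, a cytoplasmic tyrosine kinase, had 0.104, 0.0425 and 0.107 CPM in combination lines, 5 counts in all, and 3.28, 0.807 and 1.98 CPM in everolimus lines, 96 counts in all (adjusted p = 0.0295). Nfam1, a receptor with an activation motif that signals to NFAT, had 2.24, 0.765 and 0.373 CPM in combination lines and 6.77, 4.30 and 7.68 CPM in everolimus lines (adjusted p = 0.0367). For these 3 genes, no combination line reached the lowest everolimus line.

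Further large falls were in genes of low level and mixed function. Gstt3, a glutathione transferase, had 0.676, 0.808 and 0.852 CPM in combination lines, against 3.14, 3 and 3.1 CPM in everolimus lines (log2 -1.97 ± 0.25, adjusted p = 0.00709), with little spread in either group. Fuom, fucose mutarotase, had 0.312, 0.128 and 0.107 CPM in combination lines and 1.57, 2.15 and 2.79 CPM in everolimus lines (adjusted p = 0.0367). Hmx2, a homeobox transcription factor, had 1.3, 0.638 and 0.639 CPM in combination lines and 3.14, 3.94 and 2.48 CPM in everolimus lines (adjusted p = 0.0474). These 3 genes had separate groups, as did Unc5cl (log2 -2.33, adjusted p = 0.0423), Paqr4 (-1.43, 0.0344) and Ppfia4, a liprin (-1.64, 0.0295). Ppfia4 had 8.01, 5.31 and 8.25 CPM in combination lines and 18.6, 18.3 and 30.1 CPM in everolimus lines, and its CX-5461 lines, at 10.9 to 18 CPM, lay between them.

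Spib, an ETS transcription factor of the B lineage (chromosome 7, 44525993 to 44532071), had 110, 79.7 and 152 CPM in combination lines, against 354, 240 and 266 CPM in everolimus lines. The 2.51-fold fall (log2 -1.33 ± 0.23, adjusted p = 0.0301) had log2 values of -1.37 in the low run and -1.01 in the high run. Spib was the 1 called gene of 42 in the B cell list (median -0.02), beside 0.719% of all genes called. Igkc, the kappa constant region, had 119, 101 and 50.6 CPM in combination lines and 189, 197 and 216 CPM in everolimus lines and did not pass (adjusted p = 0.0633).

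Itgal, the alpha chain of the integrin LFA-1 (chromosome 7, 127296260 to 127335138), had 38.6, 43.4 and 35.9 CPM in combination lines, against 80.1, 85.5 and 99.0 CPM in everolimus lines (log2 -1.17 ± 0.17, adjusted p = 0.0183). Icam2, a ligand of LFA-1, had 31.1, 26 and 23.8 CPM in combination lines and 45.6, 42.8 and 46.8 CPM in everolimus lines (log2 -0.74 ± 0.14, adjusted p = 0.0367). The integrin chain and its ligand were therefore both lower. They were the 2 called genes of 28 in the list of chemokine receptors, adhesion and egress (median -0.15), beside 0.719% of all genes called. With the 6 libraries alone, 1 member of that list was called. Rhbdf2 (iRhom2), which controls shedding of surface proteins by ADAM17 and was named outside the rule, had 14.9, 13.8 and 15 CPM in combination lines and 42.1, 33.3 and 35.1 CPM in everolimus lines (log2 -1.34 ± 0.13, adjusted p = 0.00116).

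Hexa, a subunit of lysosomal beta-hexosaminidase, had 30.9, 42.3 and 34.8 CPM in combination lines, against 90.0, 78.3 and 109 CPM in everolimus lines (log2 -1.36 ± 0.24, adjusted p = 0.0301). It was the 1 called gene of 32 in the lysosome and autophagy list (median -0.14), beside 0.719% of all genes called. Psap, the precursor of the saposins, had 329, 329 and 340 CPM in combination lines and 502, 453 and 524 CPM in everolimus lines, and did not pass (adjusted p = 0.0728). A pair of lysosomal genes outside the list did: Glb1, beta-galactosidase, at 35.6, 35.7 and 37.4 CPM in combination lines and 52.1, 57.0 and 71.6 CPM in everolimus lines (adjusted p = 0.0359), and Grn, progranulin, at 31.7, 32.3 and 39.3 CPM in combination lines and 83.1, 49.3 and 83.8 CPM in everolimus lines (adjusted p = 0.046). Both were picked after their values were seen.

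Pim1 was the 1 called gene of 3 Pim kinases, beside 0.719% of all genes called. Pim1, a serine/threonine kinase that co-operates with Myc in lymphoma, had 34.7, 32.6 and 29.2 CPM in combination lines, against 48.8, 51.1 and 52.5 CPM in everolimus lines (log2 -0.66 ± 0.11, adjusted p = 0.0295). Pim2 had 21.1, 24.1 and 21.5 CPM in combination lines and 18.6, 18.2 and 15.7 CPM in everolimus lines, in the other direction, and did not pass (adjusted p = 0.432). Bid, which links death receptors to mitochondria, had 57.6, 57.3 and 61.7 CPM in combination lines and 85.4, 121 and 117 CPM in everolimus lines (log2 -0.88 ± 0.14, adjusted p = 0.0295), and it lies on chromosome 6. It was the 1 called gene of 12 BCL2 family genes, beside 0.719% of all genes called. Bcl2 (log2 -0.13, adjusted p = 0.888) and Mcl1 (log2 0.03, adjusted p = 0.964) did not pass.

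Cyclic AMP is made by adenylyl cyclases, broken down by phosphodiesterases and read out by protein kinase A and the EPAC exchange factors. Of 27 genes of this pathway tested (median 0.04), 1 was higher and 1 lower, beside 0.719% of all genes called. No member of the list was called with the 6 libraries alone or without combination line 8. The cyclase gene Adcy3 had 33.8, 25.2 and 20.2 CPM in combination lines, against 12.8, 16 and 11.3 CPM in everolimus lines (log2 0.98 ± 0.20, adjusted p = 0.0474). The phosphodiesterase gene Pde8a had 0.416, 0.425 and 0.266 CPM in combination lines and 2.85, 1.21 and 2.48 CPM in everolimus lines (log2 -2.52 ± 0.44, adjusted p = 0.0301). The groups overlapped for neither gene. Rapgef3 (EPAC1), an effector, had 17.8, 27.8 and 15.8 CPM in combination lines and 14.7, 14.5 and 12.5 CPM in everolimus lines and did not pass (log2 0.56 ± 0.37, adjusted p = 0.592). Rapgef4 (EPAC2) stayed under 1 CPM in all 6 lines and was not tested.

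The genes closest to the drugs did not differ by this test. Myc had 1717, 1539 and 1336 CPM in combination lines and 1138, 1481 and 1312 CPM in everolimus lines, which overlap (log2 0.22 ± 0.16, adjusted p = 0.622). Polr1b, a subunit of RNA polymerase I, had 146, 145 and 137 CPM in combination lines and 136, 151 and 164 CPM in everolimus lines (log2 -0.08 ± 0.11, adjusted p = 0.856). Top2a, topoisomerase II alpha, had 76.8, 135 and 212 CPM in combination lines and 200, 125 and 163 CPM in everolimus lines (log2 -0.20 ± 0.32, adjusted p = 0.866). Mtor (adjusted p = 0.652), Fkbp1a, which encodes FKBP12 (0.618), and Eif4ebp1, which encodes 4E-BP1 (0.476), did not pass either. The drug efflux gene Abcb1a was at most 1.06 CPM in all 6 lines (log2 1.21 ± 0.52, adjusted p = 0.343), and Abcb1b had an adjusted p of 0.517. Trp53 (log2 -0.35 ± 0.15, adjusted p = 0.342), Cdkn2a (0.845), Trib3, a target of ATF4 (log2 0.89 ± 0.44, adjusted p = 0.42), and hexokinase gene Hk2 (0.957) did not pass.

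No member was called of 79 ribosomal protein genes (median 0.00), 56 genes of RNA polymerase I and ribosome assembly (0.05), 45 translation factors (0.15), 40 mTORC1 components (0.05), 71 nuclear-encoded respiratory chain genes (0.00) and 20 tRNA synthetases (0.14). The same was true of 35 genes of the integrated stress response (-0.02), 30 interferon-stimulated genes (-0.13), 23 antigen presentation genes (0.00), 35 replication genes (-0.05), 31 G2 and mitosis genes (-0.02) and 31 proteasome genes (0.13). Edem1, which hands misfolded glycoproteins to degradation, was the 1 called gene of 25 in the endoplasmic reticulum folding list, beside 0.719% of all genes called. Edem1 had 25.7, 23.3 and 24.3 CPM in combination lines and 36.6, 37.6 and 36.3 CPM in everolimus lines (adjusted p = 0.0295). Cct3, a subunit of the TRiC chaperonin, was the 1 called of 18 cytosolic chaperones (median 0.26), beside the same share of all genes. Cct3 had 124, 119 and 140 CPM in combination lines and 82.3, 85.5 and 74.7 CPM in everolimus lines (adjusted p = 0.046). It lies on chromosome 3, which is described further on. A list with no call is not shown to be alike in both groups.

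**Figure D2:**
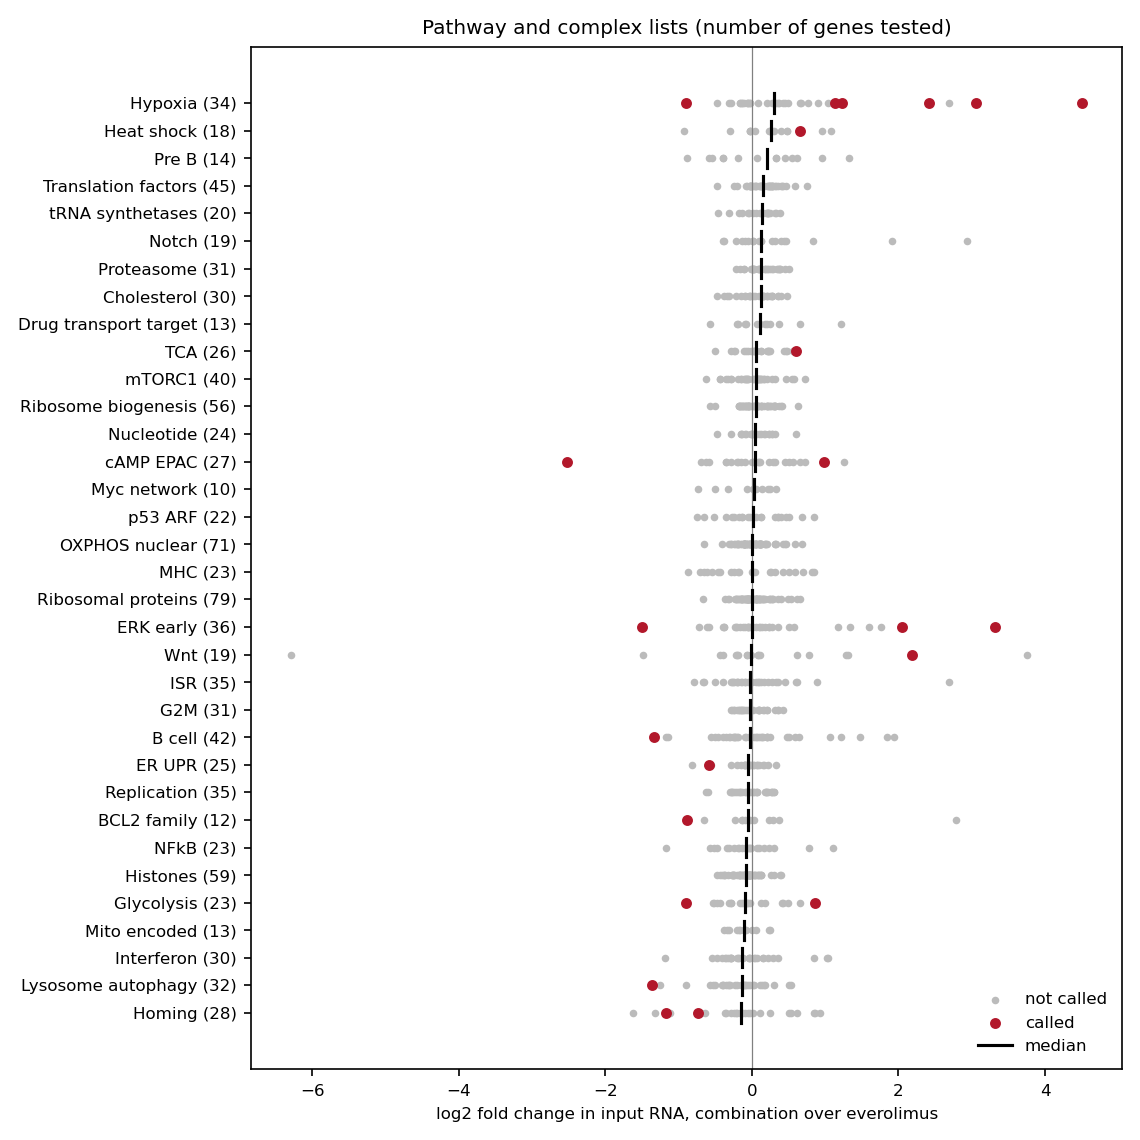
Log2 fold change in input RNA (combination over everolimus, horizontal axis) of every tested gene in each list with at least 10 tested genes; gray points did not pass, red points were called, and black bars are medians. Medians lie between -0.15 and 0.30, and called genes are few in each list. The Hypoxia list was written after values were seen.

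Called genes were unevenly placed in the genome. Chromosome 6 holds 659 of the tested genes (4.55%), and 30 of the 67 falls lay there, with 2 rises. Of its 659 genes, 536 (81.3%) had a negative log2 fold change, and the median was -0.38. Chromosome 3, with 637 tested genes, held 10 of the 37 rises and no fall, at a median of 0.32. Chromosome 5 had a median of 0.20, and the medians of the other autosomes lay between -0.06 and 0.08. Outside chromosomes 3, 5 and 6, 57 genes were called; with those chromosomes left out before scaling and testing, 32 were.

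Per line, the level of a chromosome is the median, over its genes above a mean of 5 CPM, of log2(CPM + 0.5) relative to the median of the 12 lines, after centring each line on the median of all such genes. Chromosome 6 was at -0.19, -0.13 and -0.18 in combination lines 8, 9 and 31, against 0.10, 0.17 and 0.29 in everolimus lines 4, 12 and 26. All combination lines were low and all everolimus lines high, with CX-5461 lines at -0.20 to -0.16 and naive lines at 0.26 to 0.33. Within runs the median fold change of chromosome 6 was -0.38 in the low run and -0.39 in the high run, and leaving out each line in turn gave -0.42 to -0.33. In windows of 20 Mb along the chromosome the median fold changes ran from -0.51 to -0.24. The lines were less separate over the first 60 Mb, where combination line 9 was at -0.12, -0.02 and -0.09 and everolimus line 12 at -0.01, 0.03 and 0.03 in successive windows. Chromosome 3 was at 0.14, 0.16 and 0.23 in combination lines and -0.11, 0 and -0.28 in everolimus lines, and its median fold change was 0.15 in the low run, 0.46 in the high run and 0.43 without everolimus line 12. Chromosome 5 differed through line 9, at 0.34, while combination lines 8 and 31 were at -0.04 and 0.06 and everolimus lines at -0.05 to -0.04. Without line 9 the median fold change of chromosome 5 was 0.08, against 0.20 with it. In line 31 just the last part of chromosome 5, from 120 Mb on, was raised, at 0.31 and 0.38 in 2 windows of 20 Mb. CX-5461 lines 14 (0.35 and 0.39) and 39 (0.30 and 0.43) were raised in the same windows, and line 20 was not (-0.07 and -0.06). On chromosome 3, CX-5461 lines 14, 20 and 39 were at 0.02, 0.24 and 0.01, and naive lines at -0.16 to -0.11.

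Of the 30 genes that fell on chromosome 6, 26 did so by less than 2-fold. Tpi1, triosephosphate isomerase, had 812, 821 and 713 CPM in combination lines, against 1269, 1535 and 1573 CPM in everolimus lines (log2 -0.90 ± 0.18, adjusted p = 0.0474). Foxm1, a transcription factor of mitotic genes, had 136, 145 and 158 CPM in combination lines and 255, 225 and 241 CPM in everolimus lines (log2 -0.72 ± 0.14, adjusted p = 0.0367). Irf5, an interferon regulatory factor, had 136, 120 and 103 CPM in combination lines and 215, 218 and 228 CPM in everolimus lines (log2 -0.88 ± 0.14, adjusted p = 0.0295). Foxm1 and Irf5 were picked as examples after their values were seen. Ccnd2, Bid, Edem1 and Igkc are on the same chromosome, and so is Bhlhe40, which was higher. Dclk2, Spry1, Slc16a1, Cct3 and Lmo4 are on chromosome 3. DNA copy number was not measured in these libraries, and its part in the shifts of chromosomes 3, 5 and 6 was not tested.

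**Figure D3:**
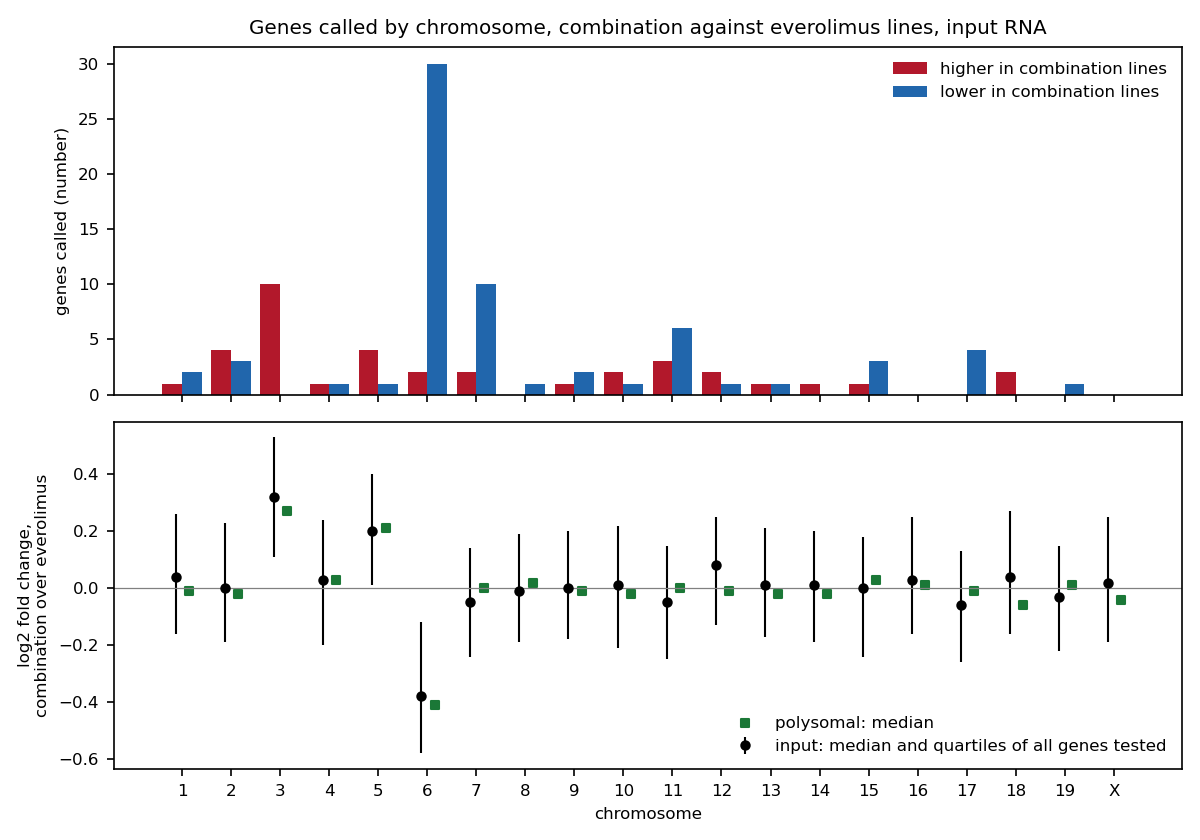
Upper panel: number of called genes on each chromosome, higher (red) or lower (blue) in combination lines. Lower panel: median log2 fold change of all tested genes on each chromosome in input RNA with quartiles (black) and in polysomal RNA (green). Chromosome 6 has 30 falls and a median of -0.38, chromosome 3 has 10 rises and a median of 0.32.

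**Figure D4:**
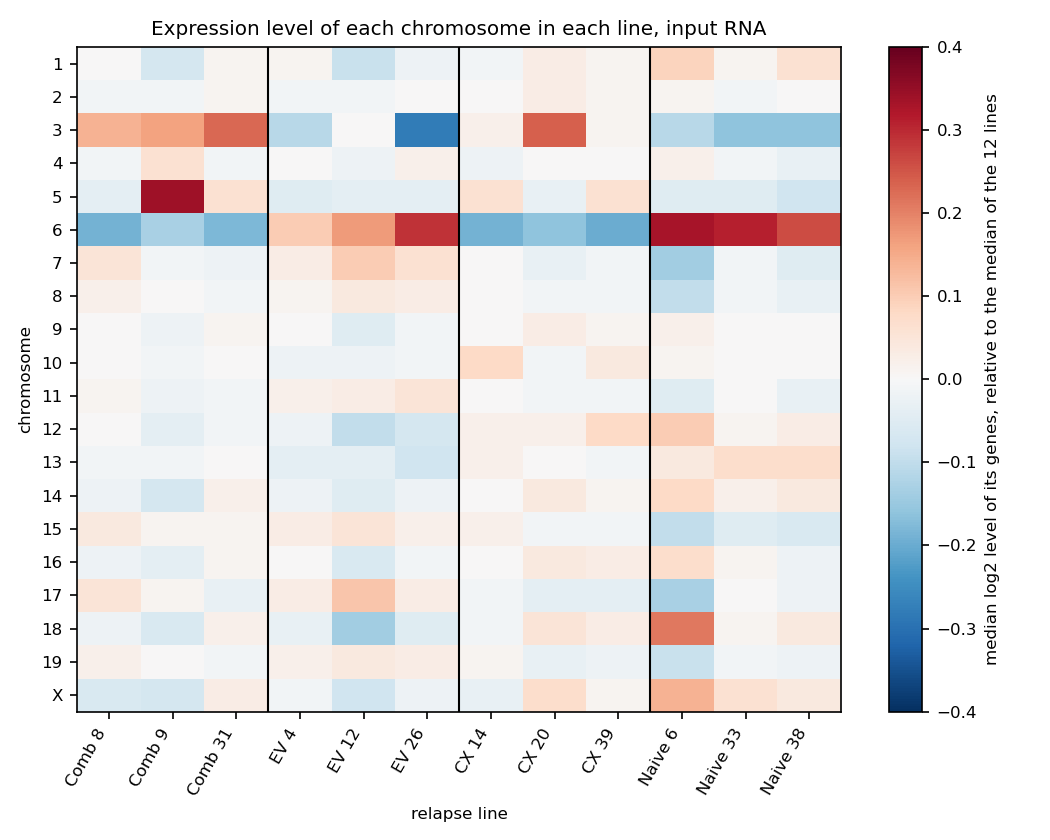
Median log2 level of the genes on each chromosome (rows) in each line (columns), relative to the median of the 12 lines; red is higher and blue lower. Chromosome 6 is blue in the 3 combination and 3 CX-5461 lines and red in the 3 everolimus and 3 naive lines, and chromosome 5 stands out in combination line 9 at 0.34.

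The levels of CX-5461 and naive lines, which entered the model but not the contrast, lay on different sides of many called genes. The mean of the CX-5461 lines was nearer to the combination mean in 92 of 104 called genes (88.5%), beside 65.1% of all genes tested. The mean of the naive lines was nearer to the everolimus mean in 87 of 104 (83.7%), beside 47.1% of all genes tested. Without chromosomes 3, 5 and 6 these counts were 49 of 57 and 48 of 57. In 12 of the 104 the mean of the CX-5461 lines was nearer to the everolimus mean. Adm, Tgfb2, Bhlhe40 and Spats2 were among these exceptions, with low levels in CX-5461 lines. Bhlhe40 had 0.256, 0.405 and 1.04 CPM in CX-5461 lines 14, 20 and 39, and Spats2 had 0.512, 1.04 and 0.539 CPM.

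Light chain segments differed among some of the lines and were shared by others. The leading kappa variable segment was Igkv4-79 in combination lines 8 (49.2 CPM) and 9 (41.3 CPM), and Igkv5-43 in line 31 (37.7 CPM). It was Igkv1-117 in everolimus line 4 (69.7 CPM), Igkv4-57-1 in line 12 (146 CPM) and Igkv5-43 in line 26 (77.2 CPM). Lines 8 and 9 also shared their second segment, Igkv5-43 (35.2 CPM in line 8 and 36.5 CPM in line 9), and everolimus line 26 had 27.6 CPM of Igkv4-79. Whether lines with shared segments descend from the same part of the clone was not tested. Every SE and p-value here counts such lines as independent. Igkv6-23 had 6.87 CPM in combination line 31 and at most 0.186 CPM in the other 5. Igkv1-117 had 145 to 156 CPM in the naive lines and at most 1.18 CPM in the other 5 lines compared. Rnf43, a ligase that clears Wnt receptors from the surface, had 0.104, 0.085 and 0.0533 CPM in combination lines, against 21.2, 0.0896 and 0 CPM in everolimus lines 4, 12 and 26. Naive lines had 59.6 to 81.7 CPM of Rnf43, so line 4 was the 1 compared line with RNA of both naive-line genes. Without line 4 the comparison called 23 genes, as given above. Kappa segments are near-identical in places, so counts can be split among them.

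Polysomal RNA of the same 6 lines, from fractions with at least 4 ribosomes, is a second readout of the same cells. There 104 of 14797 genes (0.703%) passed, 41 higher (0.277%) and 63 lower (0.426%) in combination lines. The polysomal libraries of CX-5461 lines 14 and 39, which share the model, stood apart: genes of mitochondrial DNA were at -2.24 in line 14 and -1.90 in line 39 on the per-line scale above, against -0.53 to 0.41 in the other 10 lines. Without these libraries 993 genes were called, with the run as a term 12, and without everolimus line 26 none by edgeR (1493 at an unadjusted p under 0.05). The count was 2 without combination line 9, 6 without combination line 8, 7 without combination line 31, 22 without everolimus line 4 and 61 without everolimus line 12. Of the 104 genes called in input RNA, 103 had the same sign in polysomal RNA and 29 were called there with that sign. Sox12 had 22.1, 20.7 and 21.5 polysomal CPM in combination lines 8, 9 and 31, against 3.86, 4.31 and 1.70 in everolimus lines 4, 12 and 26 (log2 2.70 ± 0.41, adjusted p = 0.0299). Adm (log2 2.76 ± 0.47, adjusted p = 0.0343), Lgr5 (1.74 ± 0.17, 0.00882), Tgfb2 (4.38 ± 0.77, 0.0374), Prg3 (-3.16 ± 0.48, 0.0299), Pde8a (-3.43 ± 0.43, 0.0216) and Dusp5 (-1.55 ± 0.27, 0.0349) were called in both fractions. Ccnd2 (log2 -4.21, adjusted p = 0.0836), Spib (-1.16, 0.0583), Itgal (-1.08, 0.0503) and Egln3 (2.38, 0.0768) kept their size but did not pass. On chromosome 6, 39 genes were lower in polysomal RNA, with a median of -0.41. The polysomal run split differently, with combination lines 9 and 31 and everolimus line 12 in the low run, and edgeR called no gene within that run (485 at an unadjusted p under 0.05; DESeq2 on all lines called 772). That low run also held CX-5461 lines 14 and 39, which stood apart, beside line 20, so their difference from line 20 entered the spread of its fit. The input and polysomal libraries come from the same cultures and are not independent lines.

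**Figure D5:**
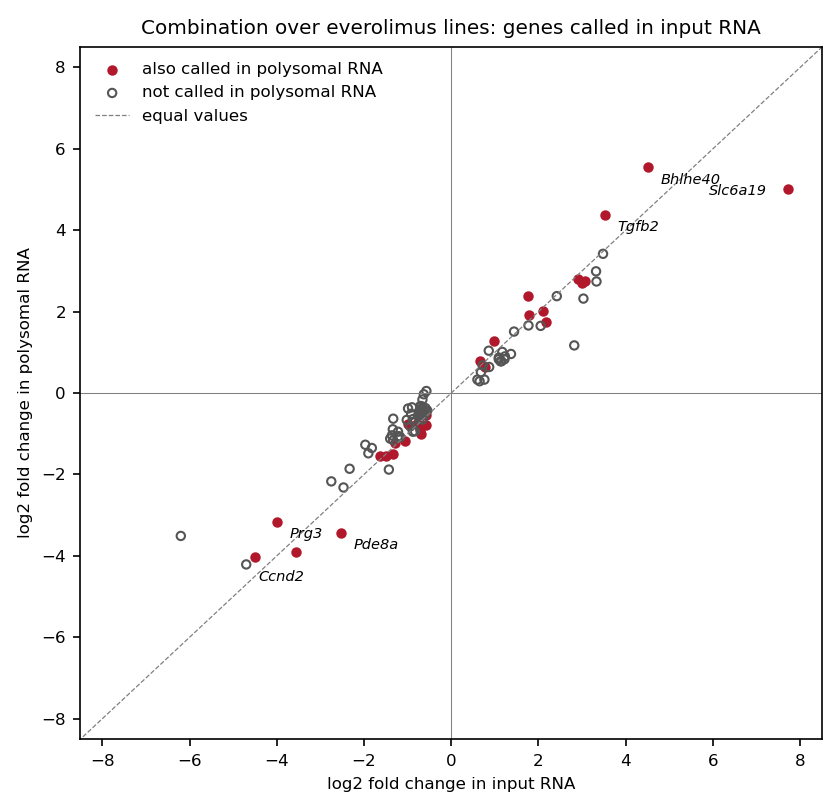
Log2 fold change (combination over everolimus) in input RNA (horizontal axis) and polysomal RNA (vertical axis) of the 104 genes called in input RNA; filled red points, 29 genes, were also called in polysomal RNA and the dashed line marks equal values. All but Gm4217 keep their sign, and Slc6a19, with no count in everolimus input RNA, has a fitted value that depends on the prior count.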

How the data were processed

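RNA of relapse lines was measured by ribodepleted, single-end sequencing of 50 bases. Per the submitters' processing notes, TopHat2, HTSeq and the build GRCm38 were used; annotation and strand setting are not given in the sources used here, so overlapping and antisense genes cannot be told apart. The deposited values are raw counts per gene made by the authors, 35556 genes, with 27 symbols turned into dates.

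Counts were filtered with filterByExpr, scaled by TMM and fitted with edgeR 4.0.16 (quasi-likelihood; limma 3.58.1, R 4.3.3), all 12 relapse libraries of a fraction in 1 model, combination minus everolimus, Benjamini-Hochberg threshold 0.05. Each SE was taken as the size of the log2 fold change divided by the square root of its F statistic. Alternatives were DESeq2 1.42.0, RLE scaling, no filter, 6 libraries alone, a run term, fits within runs and each line left out; 2 more (chromosomes 3, 5 and 6 left out; polysomal CX-5461 lines 14 and 39 left out) were chosen after seeing the data. In simulated input counts of 14474 genes, changes were planted in genes above a mean of 5 CPM, 50 genes per fold. Of these, 4% of 1.5-fold changes, 52% of 2-fold changes (all falls) and 98% of 4-fold changes (all rises) were called. Genes of lower level were not covered. Depth was 14566897 to 26016328 counts, and line pairs of a group differed beyond sampling noise.

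Named genes were the 12 largest rises and falls without overlap and at least 2 CPM, up to 3 called members per list and direction, a fixed set of drug and survival genes, and genes of single lines; any other gene is named as chosen after its values were seen. Examples that did not pass, from the 40 fixed lists and beyond (Egln1, Hif1a, Vhl, Slc16a3, Rnf43), were chosen after their values were seen. Members and lists were chosen with earlier results of these data known. Positions are GENCODE M21, then RefSeq. A result on 1 gene is not reported here.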

Additional observations from a re-analysis of the deposited data

How the results depend on the processing

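No paired analysis was possible because the groups share no line number. In input RNA the 104 calls became 436 with DESeq2 (151 higher, 285 lower), 474 with no count filter (224 higher, 250 lower), 7 with the 6 libraries alone, 497 with the run as a term, 58 in the low run, 825 in the high run (403 higher, 422 lower) and 32 without chromosomes 3, 5 and 6. Of the 104, 18 were also called in the low run and 83 in the high run. Leaving out each line gave 3 to 48. In polysomal RNA the 104 calls became 772 with DESeq2, 362 with the 6 libraries alone, 12 with the run as a term, 0 in the low run (485 at an unadjusted p under 0.05), 820 in the high run and 993 without CX-5461 lines 14 and 39, and 0 to 61 when each line was left out (0 without everolimus line 26). RLE scaling gave 115 in input and 109 in polysomal RNA. The cause of these changes was not tested; fits within a run, of 6 libraries or with a line left out also hold fewer samples. Each within-run fit had 1 line on 1 side and took its spread from the groups that held more lines there. In the high run of input RNA that was everolimus alone, with lines 4 and 26, so those calls rest on 1 pair. The low run of polysomal RNA held CX-5461 lines 14 and 39, whose difference from line 20 entered its spread. Of 38 named genes with a call, DESeq2, RLE scaling and the run term kept 38, and the 6 libraries alone kept 5. Leaving out a line kept 2 (without combination line 9), 4 (without everolimus line 26) and up to 18 (without combination line 8). None of these settings, nor the fits within a run, turned the direction. Genes of few counts, such as Fes and Slc6a19, have the least certain folds.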
